A study of Mus musculus with 4 samples.

Results

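Transcripts of 40 genes of protein folding were examined in lung group 2 innate lymphoid cells (ILC2s). They comprise the heat shock factors Hsf1 and Hsf2, the HSP90 system, the HSP70 and HSP40 system, the small heat shock proteins, the mitochondrial chaperones and the cytosolic chaperonin CCT. The genes were taken by symbol from the 38697 genes of the authors' deposited table, and all 40 were found on 1 row each. All 40 had a deposited adjusted p, as had 19193 genes in all, so no member was lost to the filter on low counts.

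RNA came from ILC2s sorted from lungs of bleomycin-treated C57BL/6 mice, bleomycin being an antitumour agent that scars lung tissue. The 2 WT samples were R5/+ and the 2 KO samples R5/+Nrp1f/f, each a pool of 3 to 4 mice. Both genotypes carry R5, in which reporter and Cre recombinase sequences were placed in Il5, so the floxed Nrp1 is deleted only in cells that have expressed Il5. Ages are not given in the labels. The values are the authors' own comparison: baseMean (the normalized count averaged over libraries) and a log2 fold change with a standard error (SE), given here so that negative values mean lower in KO. A gene passed the test where its deposited adjusted p was under 0.05. Values of single samples were not used here, because the columns that hold values per library could not be matched to samples.

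The folding machinery works as a relay. HSP70 proteins bind unfolded stretches of client proteins, and HSP40 proteins (the Dnaj genes) deliver clients and start the ATP cycle that nucleotide exchange factors complete. Stip1, also called HOP, holds HSP70 and HSP90 at the same time and passes clients such as kinases and steroid receptors to HSP90, whose own cycle is tuned by further cochaperones. CCT is a double ring of 8 kinds of subunit that folds actin and tubulin, HSP60 and HSP10 (Hspd1 and Hspe1) form the chaperonin of mitochondria, and HSF1 is the transcription factor that raises many of these genes after heat or proteotoxic stress.

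HSF1 binds heat shock elements, inverted repeats of GAA spaced by any pair of bases. Promoters of 33 of the 40 members were found among the RefSeq promoters of build GRCm38.p6, which run from 250 bases before to 50 after an annotated start. The entries lacking are Hsf1, Hsp90aa1, Hsp90ab1, Hspa8, St13, Hspa9 and Cct4. Each was searched for the pairs GAANNTTC and TTCNNGAA and for either pair extended by a further unit at the same spacing. These forms cover both strands, and every run of 3 units contains both pairs. A run of 3 or more units lay in the promoters of 5 of 33 members (15.2%), namely Chordc1, Dnajb6, Hspd1, Hspe1 and Hsph1, against 0.662% of the 27025 genes in the promoter set. A pair lay in 18 of 33 members (54.5%) against 17.0% of genes. Genes with several annotated starts have several windows, some of which overlap, as for Dnajb6 and Hsph1, and a match is a description of letters only.

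For each run of at least 3 units 1 window is printed here with the run in capitals, each 5′ to 3′ on the strand of its gene, followed by that of Stip1, which held neither pair and is shown because its transcript was the member that passed the test. Hspd1 and Hspe1 lie head to head and share 1 run of 4 units, which starts 89 bases before the Hspe1 start. The run in Chordc1 has 5 units and starts 4 bases before the start. The run in Dnajb6 lies 46 bases before the nearer of its annotated starts, and that in Hsph1 15 bases after one of its starts.
Hspe1 (chr1:55087898-55088197, plus strand, shared with Hspd1): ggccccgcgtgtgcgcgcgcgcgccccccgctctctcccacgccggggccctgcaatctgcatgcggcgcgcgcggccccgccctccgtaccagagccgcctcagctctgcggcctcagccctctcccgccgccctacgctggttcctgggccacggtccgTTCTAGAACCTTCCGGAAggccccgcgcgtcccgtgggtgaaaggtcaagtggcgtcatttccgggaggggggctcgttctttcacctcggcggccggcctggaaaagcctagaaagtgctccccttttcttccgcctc
Chordc1 (chr9:18292017-18292316, plus strand): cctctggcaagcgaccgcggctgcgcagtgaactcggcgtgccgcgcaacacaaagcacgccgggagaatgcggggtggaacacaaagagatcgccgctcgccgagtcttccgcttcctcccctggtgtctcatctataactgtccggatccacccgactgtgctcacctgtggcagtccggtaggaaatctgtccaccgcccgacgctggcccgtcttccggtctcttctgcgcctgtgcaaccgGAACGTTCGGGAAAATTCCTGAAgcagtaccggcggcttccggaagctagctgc
Dnajb6 (chr5:29735648-29735947, plus strand): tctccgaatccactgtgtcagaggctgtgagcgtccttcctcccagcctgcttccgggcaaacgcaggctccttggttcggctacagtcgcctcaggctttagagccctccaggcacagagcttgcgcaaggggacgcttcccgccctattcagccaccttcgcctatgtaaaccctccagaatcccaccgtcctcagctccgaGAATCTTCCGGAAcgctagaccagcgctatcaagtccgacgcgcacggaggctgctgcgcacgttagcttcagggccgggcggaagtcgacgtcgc
Hsph1 (chr5:149636266-149636565, minus strand): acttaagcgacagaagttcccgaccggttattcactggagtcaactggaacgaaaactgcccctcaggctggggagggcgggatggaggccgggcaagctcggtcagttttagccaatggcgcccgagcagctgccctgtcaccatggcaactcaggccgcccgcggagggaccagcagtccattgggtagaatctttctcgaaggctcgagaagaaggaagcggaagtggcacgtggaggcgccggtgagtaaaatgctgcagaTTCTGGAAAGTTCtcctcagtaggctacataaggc
Stip1 (chr19:7039977-7040276, minus strand): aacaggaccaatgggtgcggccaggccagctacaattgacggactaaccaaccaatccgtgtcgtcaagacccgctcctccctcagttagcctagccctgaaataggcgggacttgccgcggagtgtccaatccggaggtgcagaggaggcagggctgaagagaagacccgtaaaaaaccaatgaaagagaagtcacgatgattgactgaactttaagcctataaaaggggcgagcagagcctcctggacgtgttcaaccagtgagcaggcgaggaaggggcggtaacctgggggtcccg

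Chaperones were among the abundant transcripts of these libraries. The 40 members together held 1.82% of the summed baseMean of all genes. Of the 40, 31 had a baseMean of at least 1000, against 2480 of the 19193 tested genes. Per kilobase of transcript, which allows genes to be compared, Hspa8, the constitutive HSP70, had the highest level at a baseMean of 25044 per kb. It was followed by the constitutive HSP90 Hsp90ab1 (12041 per kb), the inducible HSP70 Hspa1b (9432 per kb), the inducible HSP90 Hsp90aa1 (3648 per kb) and the HSP40 genes Dnajb1 (3577 per kb) and Dnaja1 (3335 per kb). Hsp90ab1 thus stood at 3.30 times the level per kb of Hsp90aa1. Early-response genes, which tissue dissociation induces as it does heat shock genes, were also high (baseMean 114241 for Junb and 76513 for Fos). The part of dissociation in the levels of the inducible chaperones was not tested. Cochaperones were lower, with Ptges3 at 1886, Stip1 at 1329, Fkbp4 at 1120, Ahsa1 at 809, Cdc37 at 468 and Chordc1 at 195 per kb. The 8 CCT subunits, which occupy 1 position each in a ring, lay within a 3.01-fold range of level per kb, from 773 for Tcp1 to 2323 for Cct5. The lowest members were Hspa4l (99.4 per kb), Hsf2 (84.4 per kb) and Hspb8 (28.5 per kb), and Hsf1 stood at 735 per kb. These levels are means over all libraries without an error, so it cannot be said which neighbours in the order differ beyond their spread. Level per kb also rests on the length of the principal annotated transcript, the longest where several ranked alike. For Cdc37 that length was 7851 bases, and a shorter transcript would raise its level per kb. By that length Hspe1 stood at 1.49 times Hspd1, its partner in the mitochondrial chaperonin, and by the length of all annotated exons at 0.852 times. The length of all exons also placed Dnajb1 (3345 per kb) above Hsp90aa1 (3045 per kb) and Hspa1a (2299 per kb) above Dnaja1 (2173 per kb). Other places changed too, with Hsf2 (22.9 per kb) below Hspb8 (26.6 per kb) and Ahsa1 (255 per kb) below Cdc37 (448 per kb). Hsf1 stood at 216 per kb by that length.

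**Figure D1:**
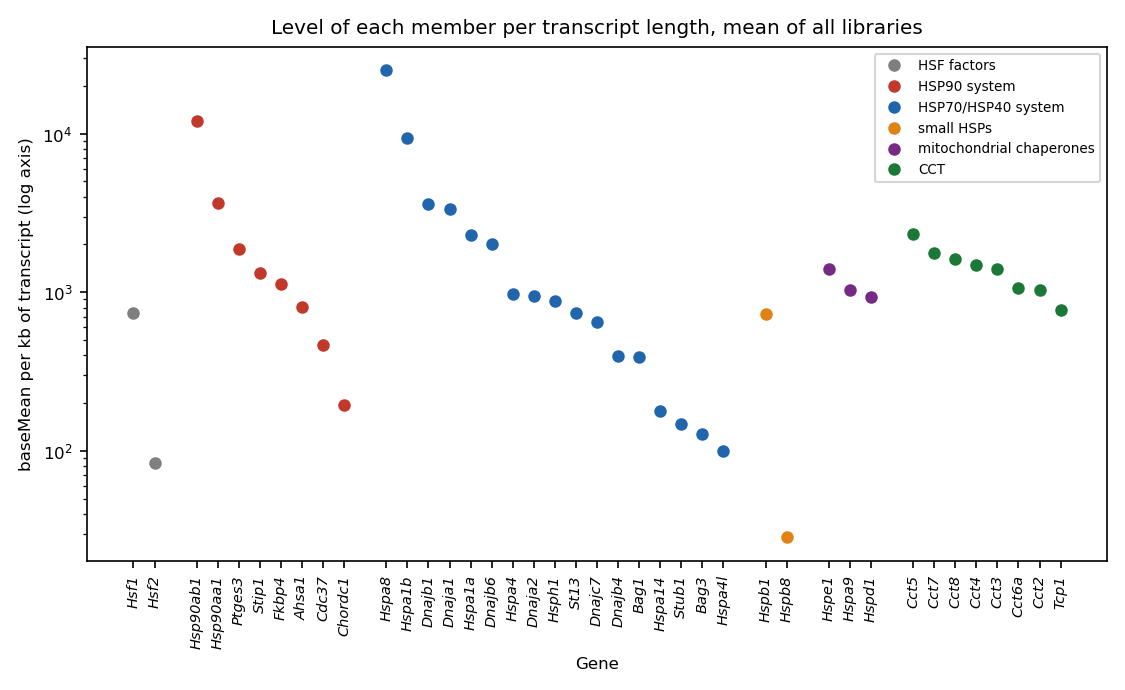
Level of each of the 40 members as baseMean per kb of its principal transcript (log axis), 1 point per gene, ordered within each group of members. Hspa8 and Hsp90ab1 are highest, at 25044 and 12041 per kb, while the 8 CCT subunits lie close together between 773 and 2323 per kb.

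The inducible HSP70 genes Hspa1a and Hspa1b are neighbours on chromosome 17 whose coding sequences differ at 8 aligned bases and by a gap of 3 (99.6% identical), so reads may be split between them and their separate values are uncertain. The labels do not describe the kits as marking strand, and 9 members share exon bases with an opposite-strand gene of baseMean at least 50. These are Dnaja1 (with Smu1), Dnajc7 (Cnp and Nkiras2), Stub1 (Jmjd8), Hspd1 and Hspe1 (each other), Tcp1 (Mrpl18), Cct6a (Psph), Cct7 (Pradc1) and Cct8 (Usp16).

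The targeted gene Nrp1, the co-receptor neuropilin-1, had in the authors' deposited table a log2 fold change of -1.18 ± 0.21 (SE), adjusted p = 1.27e-04. That table does not state its numerator, and reading its WT before KO as WT over KO is what makes Nrp1, and every gene signed like it, lower in KO. ILC2 markers were present, with a baseMean of 39152 for Gata3 and 41644 for Rora, and 0 of 10 passed the test. All 10 were negative, with a median log2 of -0.33 and 4 lower at an unadjusted p under 0.05, and 6 were negative when centred on genes whose baseMean reached 1000 (median -0.08). Markers of other cells were lower, with a summed baseMean of 1164 for 6 T cell markers (Cd8a at 3.84), 9977 for 5 macrophage markers (8981 of it Lyz2) 714 for 4 B and plasma cell markers and 8079 for 4 epithelial markers, against 143710 for the 10 ILC2 markers. The macrophage markers (5 of 5, median log2 0.18) and the B and plasma cell markers (4 of 4, median log2 1.54) were all positive with 0 past the test, and 1 of the latter, Ms4a1 (log2 2.66, adjusted p = 0.2815), was higher at an unadjusted p under 0.05. With the trend over baseMean removed, 2 of the 5 macrophage markers were negative (median 0.28). The B and plasma cell markers then stayed positive, with a median of 0.83 and Ms4a1 at 1.46. The T cell receptor chain Cd3g, at a baseMean of 963 of the 1164 summed over T cell markers, was the marker that passed the test (-0.96 ± 0.24, adjusted p = 0.0292). The other T cell markers, at a baseMean of 3.84 to 114, had both signs. They were Cd3e at -0.44, Trac at -0.26, Cd3d at -0.02, Cd4 at 1.25 and Cd8a at 5.70, with errors of 0.56 to 3.08. With the trend over baseMean removed, all 5 T cell markers with an adjusted p, Cd3g among them, were negative. Their median was then -0.72, with Cd4 at -0.32, and Cd8a has no adjusted p. The part of cells other than ILC2s in the members' values was not tested. Early-response genes, which tissue dissociation induces as it does heat shock genes, had 0 of 8 past the test, 6 positive, 2 higher at an unadjusted p under 0.05 (Atf3 and Fosb) and a median log2 of 0.19. When centred, and also with the trend over baseMean removed, all 8 were positive, 5 at an unadjusted p under 0.05, with a median of 0.44. Their part in the members' values was not tested. Since the samples are bulk RNA, fewer cells of a type and less RNA per cell cannot be told apart.

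Stip1 was the 1 member of 40 that passed the test, as lower in KO, and none was higher. Its fall was already known from earlier results of these data, so its call is a description and no measure of enrichment. Over all 19193 tested genes 0.099% were lower and 0.453% higher by the same rule in the authors' deposited table, and 0.565% of the 2480 genes whose baseMean reached 1000 were lower. The log2 fold changes of the members ran in the authors' deposited table from -0.76 (Stip1) to 0.50 (Hspb1), with 32 negative and a median of -0.24. At an unadjusted p under 0.05, 10 members (25.0%) were lower and 0 higher, against 3.95% and 9.62% of all tested genes in the authors' deposited table. All 10 had a baseMean of at least 1000, where values are shifted as a whole: 92.9% of such genes were negative, with a median of -0.25, and 21.6% were lower at that p. Of the 31 members with a baseMean of at least 1000, 93.5% were negative, with a median of -0.27, and 32.3% were lower at that p. The share of negative values among abundant members was thus near the background of genes as abundant.

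**Figure D2:**
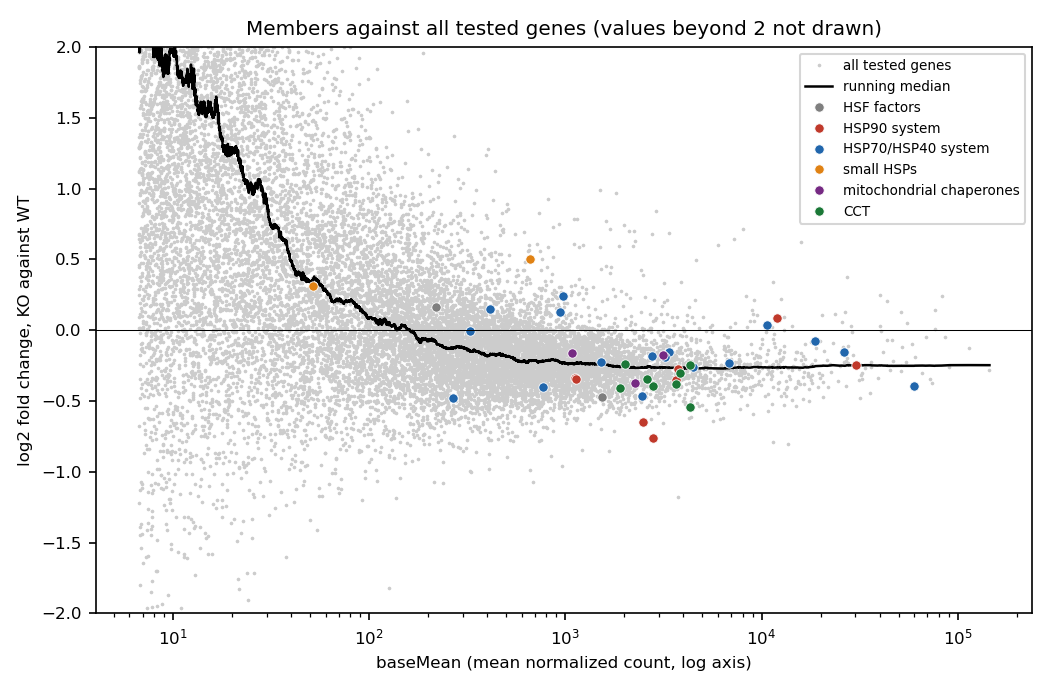
Deposited log2 fold change (KO against WT) against baseMean (log axis) for all 19193 tested genes in grey, with the running median over 250 genes on either side in black and the 40 members coloured by group. Most members lie along the median near -0.25, with Stip1 (-0.76) and Fkbp4 (-0.65) below it and Hsp90aa1 (0.09) above it. Values beyond 2 are not drawn.

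With the running median over genes of like baseMean subtracted, 19 of the 40 members were negative. Of the 31 abundant members, 1 was then lower at an unadjusted p under 0.05 (Stip1) and 1 higher (Hsp90aa1), against 0.645% and 2.86% of all genes whose baseMean reached 1000. The 95% intervals of 37 members held the running median. The other members were Stip1, at -0.50 from the running median, Hsp90aa1 at 0.35 and Dnajb4 at 0.48, with adjusted p of 0.636, 0.698 and 0.892.

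In the HSP90 system, the scaffold between HSP70 and HSP90 and a peptidyl-prolyl isomerase of the steroid receptor complex had the lowest values, while the HSP90 genes themselves lay higher. Stip1 (ENSMUSG00000024966, chromosome 19, 7020702 to 7039967, minus strand, mm10) fell in the authors' deposited table by 0.76 ± 0.19 (SE) on the log2 scale, with an adjusted p of 0.0277 at a baseMean of 2802. This corresponds to a KO level of 59% of WT (95% interval 45.9 to 75.9), and with equal weight of the genotypes to mean normalized counts of 3524 in WT and 2079 in KO. The call ended when all genes with a p were adjusted for (adjusted p = 0.0558), when values were centred on abundant genes (-0.51, adjusted p = 0.130) and with the abundance trend removed (-0.50, adjusted p = 0.636).

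Fkbp4, the isomerase FKBP52, stood in the authors' deposited table at -0.65 ± 0.21 (adjusted p = 0.1005), a KO level of 63.8% of WT (95% interval 48.3 to 84.4). Cdc37, which brings kinases to HSP90, stood in the authors' deposited table at -0.35 ± 0.17 (adjusted p = 0.328). Chordc1, a cochaperone with zinc-binding CHORD domains, stood in the authors' deposited table at -0.34 ± 0.27 and Ahsa1, the activator of the HSP90 ATPase, at -0.34 ± 0.25, with adjusted p of 0.610 and 0.577. Ptges3, the p23 cochaperone that holds the closed form of HSP90, stood in the authors' deposited table at -0.27 ± 0.16 (adjusted p = 0.454). The 95% intervals of Stip1 and these 5 cochaperones overlapped in every pair.

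The constitutive Hsp90ab1 stood in the authors' deposited table at -0.24 ± 0.14 (adjusted p = 0.440) and the inducible Hsp90aa1 at 0.09 ± 0.14 (adjusted p = 0.837). KO levels were 84.4% of WT for Hsp90ab1 (95% interval 69.9 to 102.0) and 106.1% for Hsp90aa1 (88.2 to 127.6), which overlap. The interval of Hsp90ab1 also overlapped those of Stip1 (45.9 to 75.9) and Fkbp4 (48.3 to 84.4), while that of Hsp90aa1 lay above them. Differences between the HSP90 genes, and between them and the cochaperones, were not tested. The 8 genes of the system had 7 negative values, among them Hsp90ab1 which turned positive when centred, and a median of -0.34, with 1 passing the test as lower and 0 as higher.

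**Figure D3:**
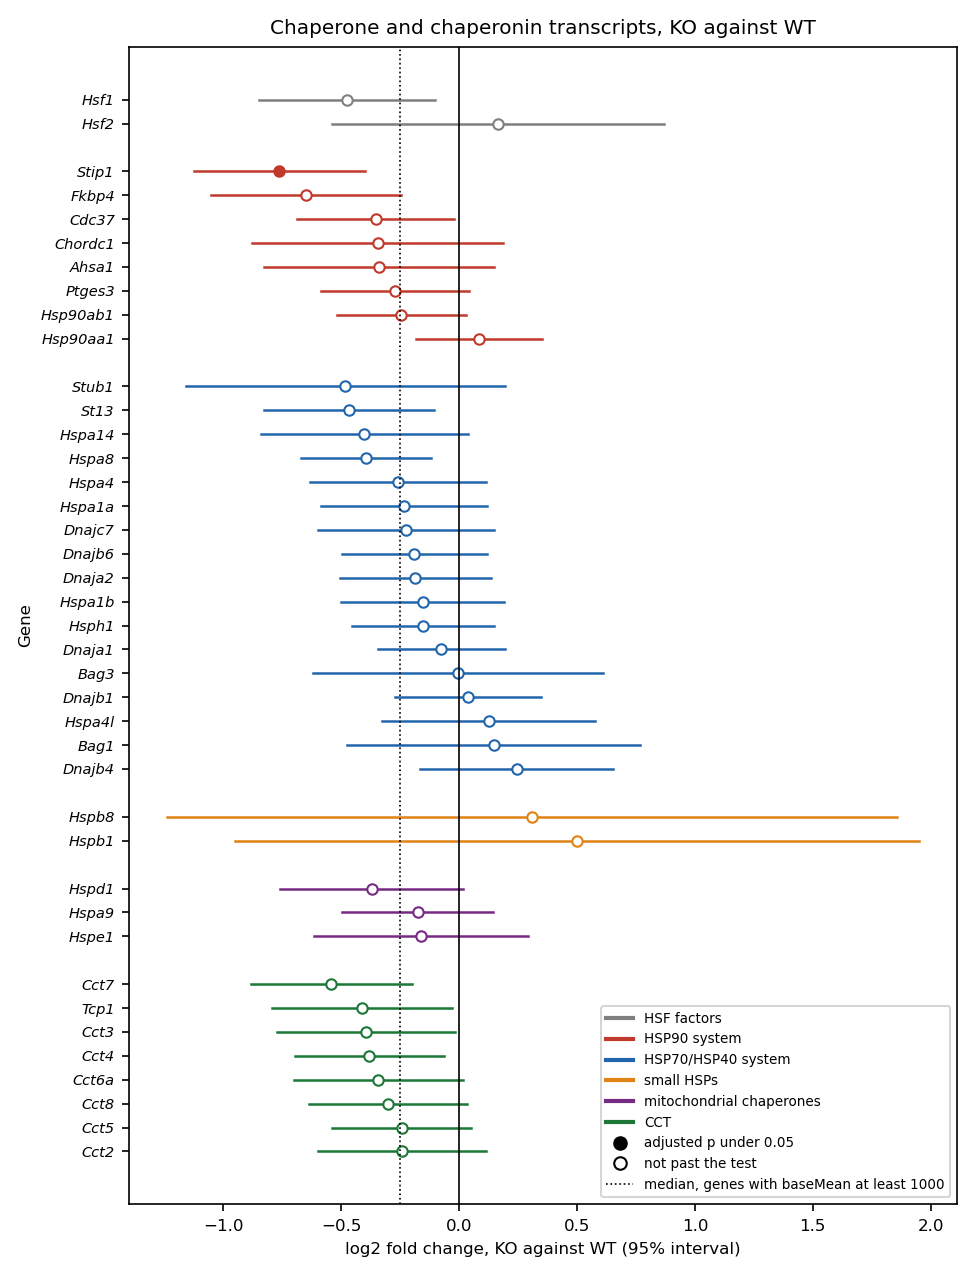
Deposited log2 fold change (KO against WT) of each member with its 95% interval, by group, where a filled point marks an adjusted p under 0.05. Stip1 at -0.76 is the filled point, and the dotted line at -0.25 is the median of tested genes with a baseMean of at least 1000.

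Of the 17 genes of the HSP70 and HSP40 system, 0 passed the test, 13 were negative and the median was -0.18, which turned to 0.07 when centred on abundant genes and to 0.08 with the abundance trend removed. Hspa8, the constitutive HSP70, stood in the authors' deposited table at -0.39 ± 0.14 (adjusted p = 0.156), a KO level of 76.1% of WT (95% interval 62.8 to 92.2). The inducible HSP70 genes Hspa1b and Hspa1a stood in the authors' deposited table at -0.15 ± 0.18 and -0.23 ± 0.18, with adjusted p of 0.752 and 0.599. The ribosome-linked HSP70 relative Hspa14 stood in the authors' deposited table at -0.40 ± 0.22 (adjusted p = 0.426). HSP110 proteins act as nucleotide exchange factors, and their values in the authors' deposited table were -0.26 ± 0.19 for Hspa4, 0.13 ± 0.23 for Hspa4l and -0.15 ± 0.15 for Hsph1, with adjusted p from 0.575 to 0.859. Among these genes only the interval of Hspa8 lay wholly below 0, and it held the shift of abundant genes.

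Among HSP40 genes, values as deposited ran from -0.22 (Dnajc7) to 0.24 (Dnajb4), and none passed the test. Dnajb1, the main partner of HSP70 in the stress response, stood in the authors' deposited table at 0.04 ± 0.16 and Dnaja1 at -0.08 ± 0.14, with adjusted p of 0.951 and 0.857. The other values in the authors' deposited table were -0.18 ± 0.16 for Dnaja2, -0.19 ± 0.16 for Dnajb6, 0.24 ± 0.21 for Dnajb4 and -0.22 ± 0.19 for Dnajc7. The KO level of Dnajb1 was 102.5% of WT (95% interval 82.7 to 127.1), and that of Dnaja1 94.9% (78.8 to 114.3). With the abundance trend removed each of these HSP40 genes was positive, and none passed the test. Dnajb4 then stood at 0.48, Dnajb1 at 0.30, Dnaja1 at 0.18, Dnaja2 at 0.08, Dnajb6 at 0.07 and Dnajc7 at 0.02.

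Regulators of the HSP70 cycle ran from -0.48 (Stub1) to 0.15 (Bag1). St13 (HIP), which holds HSP70 in its client-bound state, stood in the authors' deposited table at -0.47 ± 0.18 (adjusted p = 0.195). Stub1 (CHIP), the ubiquitin ligase that marks clients for degradation, stood in the authors' deposited table at -0.48 ± 0.35 (adjusted p = 0.565). The BAG-domain exchange factors stood in the authors' deposited table at 0.15 ± 0.32 for Bag1 and -0.0042 ± 0.31 for Bag3, with adjusted p of 0.884 and 0.998. Bag1, Bag3 and Stub1 had a baseMean of 268 to 415 and errors of 0.31 to 0.35. Like Stip1, St13 and Dnajc7 carry tetratricopeptide repeats, and counting both with the HSP90 system left its median at -0.34.

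The small heat shock proteins, which hold unfolded proteins without ATP, were the members with the widest errors. Hspb1 (HSP27) stood in the authors' deposited table at 0.50 ± 0.74 (adjusted p = 0.820) at a baseMean of 661, a KO level of 141.4% of WT with a 95% interval of 51.7 to 386.8. The 7 other members with a baseMean from 220 (Hsf2) to 970 (Dnajb4) had errors of 0.21 (Dnajb4) to 0.36 (Hsf2). Hspb8, at a baseMean of 51.8, stood in the authors' deposited table at 0.31 ± 0.79 (adjusted p = 0.903). Hspb1 is known to be abundant in epithelial, endothelial and stromal cells. Markers of these cells had log2 values of 0.11 to 2.04 (4 epithelial), 0.58 to 0.99 (4 fibroblast) and 0.26 to 0.78 (3 endothelial) in the authors' deposited table, with errors of up to 1.44, 1.31 and 0.87 and 0 past the test. Their part in the values of Hspb1 and Hspb8 was not tested.

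The mitochondrial chaperones were close to the shift of abundant genes, with 0 of 3 past the test. Hspd1 (HSP60) stood in the authors' deposited table at -0.37 ± 0.20, its partner Hspe1 (HSP10) at -0.16 ± 0.23 and Hspa9 (mortalin, the mitochondrial HSP70) at -0.18 ± 0.16, with adjusted p of 0.401, 0.814 and 0.684. The median of -0.18 turned to 0.08 both when centred on abundant genes and with the trend removed. Hspd1 and Hspe1, which share the promoter run of 4 units shown above, had KO levels of 77.4% (95% interval 59.1 to 101.2) and 89.5% of WT (65.4 to 122.5).

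The 8 CCT subunits had the narrowest range of any group with more than 3 members, all of them negative as deposited, though Cct2 and Cct5 were positive when centred or with the trend removed, and none past the test. Their values ran in the authors' deposited table from -0.54 ± 0.17 for Cct7 (adjusted p = 0.106) to -0.24 ± 0.18 for Cct2 (adjusted p = 0.592), around a median of -0.36. Between them lay Tcp1 (-0.41 ± 0.19), Cct3 (-0.39 ± 0.19), Cct4 (-0.38 ± 0.16), Cct6a (-0.34 ± 0.18), Cct8 (-0.30 ± 0.17) and Cct5 (-0.24 ± 0.15) in the authors' deposited table. At an unadjusted p under 0.05, 4 of the 8 were lower, against 3.95% of all tested genes and 21.6% of those whose baseMean reached 1000, and 0 of 8 differed at that p when centred or with the trend removed. All 8 intervals overlapped. With the trend removed the median was -0.10, and Cct2 (0.01) and Cct5 (0.03) were positive.

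The heat shock factors did not pass the test. Hsf1 stood in the authors' deposited table at -0.48 ± 0.19 (adjusted p = 0.207) and Hsf2 at 0.17 ± 0.36 (adjusted p = 0.885). The 5 members whose promoters hold runs of at least 3 heat shock units had values of -0.15 (Hsph1) to -0.37 (Hspd1), all within the range of the other members. No relation of these runs to the values was tested.

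**Figure D4:**
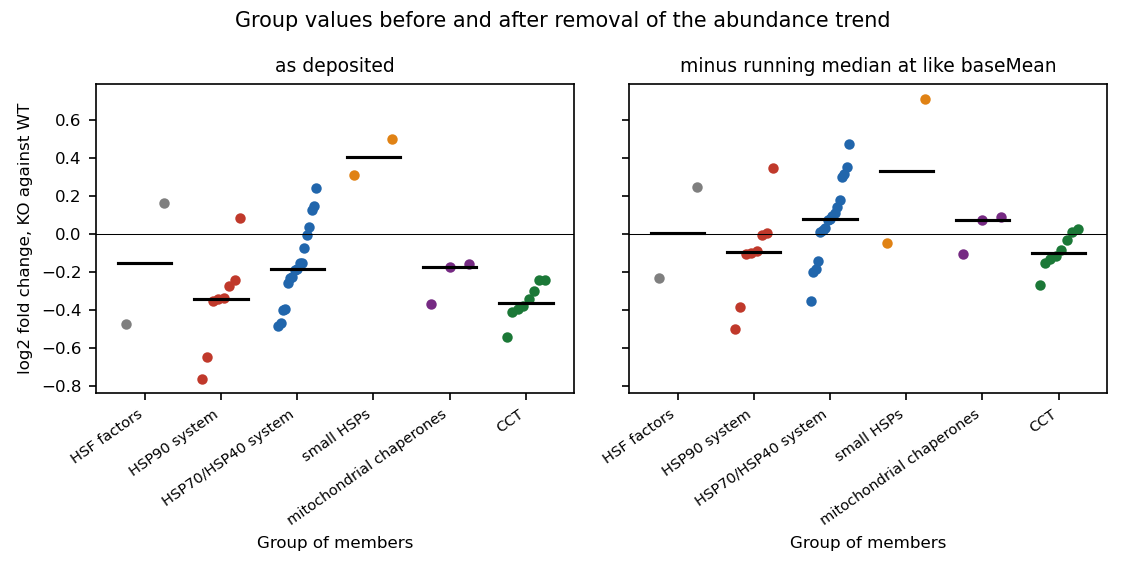
Log2 fold changes (KO against WT) of the members by group, as deposited (left) and minus the running median at like baseMean (right), with 1 point per gene and a bar at the group median. The medians of the HSP90 system and CCT move from -0.34 and -0.36 to -0.09 and -0.10, and that of the HSP70 and HSP40 system from -0.18 to 0.08.

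Between the groups, medians ran from -0.36 (CCT) and -0.34 (HSP90 system) through -0.18 (HSP70 and HSP40 system, and mitochondrial chaperones) and -0.15 (heat shock factors) to 0.40 (small heat shock proteins). The last rests on 2 genes, Hspb1 and Hspb8. Of the 5 other small heat shock proteins tested, 4 were negative, with a median of -0.47, and of -1.87 with the trend removed. Those 5 had a baseMean of 7.47 to 157 and errors of 0.53 to 1.84. The errors of single members had group medians of 0.18 to 0.76, and no difference between groups was tested. Centring added 0.25 to each value and left CCT at -0.11, the HSP90 system at -0.09 and the small heat shock proteins at 0.66. Hspb1 and Hspb8 lie below the baseMean of 1000 on which centring rests. With the trend removed their median was 0.33 and Hspb8 stood at -0.05.

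Other genes of the folding network were counted from a list of 60, of which 59 were tested. None passed the test, 4 were lower and 0 higher at an unadjusted p under 0.05, 50 were negative and the median was -0.22. Over all tested genes 3.95% were lower and 9.62% higher at that p, and 46.0% were negative. When centred, 25 of the 59 were negative with a median of 0.03, and with the trend removed 38 were negative with a median of -0.05. The nearest to the threshold was Fkbp8, a membrane-bound relative of Fkbp4, which in the authors' deposited table stood at -0.53 ± 0.16 (adjusted p = 0.0890), and Nudc, a cochaperone of HSP90, stood at -0.47 ± 0.20. Among HSP40 genes, Dnajc2 stood in the authors' deposited table at -0.47 ± 0.22 and Dnajc8 at -0.36 ± 0.18. The mitochondrial HSP90 Trap1 stood in the authors' deposited table at -0.36 ± 0.21 and the mitochondrial HSP40 Dnaja3 at -0.26 ± 0.24. Of the CCT partners, the prefoldin subunit Pfdn5 stood in the authors' deposited table at -0.31 ± 0.19 and Pdcl3, a phosducin-like cofactor, at -0.48 ± 0.30. Hsbp1, which binds HSF1, stood in the authors' deposited table at -0.25 ± 0.23 and Hsf5 at 2.21 ± 1.30, the latter at a baseMean of 15.6. Among small heat shock proteins, Hspb6 stood in the authors' deposited table at -0.97 ± 0.94, while Hspb3, at a baseMean of 0.37, has no adjusted p.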

How the data were processed

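RNA of 4 samples, 2 per genotype, (Trizol, 7 to 14 ng/ul) was amplified with the SMART-Seq HT kit and made into libraries with a TruePrep kit, per the labels' protocols. HISAT2, Cufflinks and mm10 stand in the submitters' processing notes without roles, and which counter and annotation served is not given in the sources used here. Per the file headers, the comparison has the column names DESeq2 writes. The authors deposited baseMean (a signal, the mean normalized count), a log2 fold change with its error, also log2, the statistic (a score) of the test, and a p-value with its Benjamini-Hochberg adjusted value. The score equalled the fold change over its error within 5.35e-08. Depth per sample is not known here, and the 8 columns of values per library match no sample label and were not used.

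The deposited sign was turned: the table names WT before KO without stating the numerator, and Nrp1 is lower in KO under this reading. Intervals are 1.96 errors either side (95%) and rest on the deposited error. With 2 pools per genotype that error comes from the authors' model, and the spread of each gene between pools was not measured here. An adjusted p under 0.05 over 19193 genes was the threshold. Centring subtracted the median log2 of genes whose baseMean reached 1000, the trend was a running median over 250 genes on either side, and p-values were recomputed and adjusted over the same genes (Python 3.11.15, scipy 1.17.1). The adjustment and the trend removal were run on simulated data with independent genes and the deposited errors, the centring was not. That run checks the calculation only and cannot show whether the errors hold for 2 pools per genotype. Positions and lengths came from GENCODE M21, which is on the mm10 build and held all 40 members, and promoters from RefSeq. Protein sequences were not used here.

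All 40 members are named. Of the 60 other genes those past the threshold and the 2 of smallest p per block are named. Members, groups and lists were chosen with earlier results of these data known. Refits from counts and fits without a replicate, planned for the case that libraries could be matched, were not run.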

Additional observations from a re-analysis of the deposited data

How the results depend on the processing

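The count of members past the test was 1 as deposited, with a baseMean of at least 50 or 1000, and at an adjusted p under 0.1. It was 0 without a filter, 0 when centred and 0 with the trend removed. Stip1 kept its direction in these settings and lost its call without a filter (-0.76, adjusted p = 0.0558), when centred (-0.51, 0.130) and with the trend removed (-0.50, 0.636), against adjusted p of 0.0260 to 0.0320 with the baseMean filters. The first change comes from adjusting for more genes. In the others Stip1 had an unadjusted p, recomputed from the shifted value and its error, of 0.0060 (centred) and 0.0073 (trend removed). Of all 19193 tested genes 2600 and 930 had such a p under 0.05, a number on which the adjusted p also depends. The cause of the subtracted shift was not tested. Nrp1 kept its call and direction in all 6 settings. No paired analysis was possible because the columns of values per library match no sample. For the same reason leaving out a replicate and refits with edgeR or DESeq2 were not run.

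Group medians when centred and with the trend removed were 0.0966 and 0.0074 for the heat shock factors, -0.0904 and -0.0939 for the HSP90 system, 0.0670 and 0.0786 for the HSP70 and HSP40 system, 0.0757 and 0.0765 for the mitochondrial chaperones, -0.11 and -0.0990 for CCT, and 0.66 and 0.33 for the small heat shock proteins (0.40 as deposited). With a baseMean of at least 1000 the median of the heat shock factors was that of Hsf1 alone (-0.48). Members that turned positive when centred and with the trend removed were Hsp90ab1 (0.0074 and 0.0030), Hspa1a (0.0188 and 0.0343), Hspa1b (0.0971 and 0.0963), Hsph1 (0.0990 and 0.11), Dnaja1 (0.18 and 0.18), Dnaja2 (0.0670 and 0.0786), Dnajb6 (0.0621 and 0.0722), Dnajc7 (0.0272 and 0.0197), Bag3 (0.25 and 0.14), Hspa9 (0.0757 and 0.0872), Hspe1 (0.0916 and 0.0765), Cct2 (0.0110 and 0.0120) and Cct5 (0.0091 and 0.0274). With the trend removed, Hspa4 (0.0106) also turned positive and Hspb8 (-0.0494) negative. None of these members passed the test in any setting.

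With the length of all annotated exons in place of the principal transcript, which was tried after seeing the data, the level of Hspe1 per kb relative to Hspd1 moved from 1.49 to 0.85, and the range over CCT from 3.01-fold to 4.14-fold. Depth per library is not known here, and what it limits was not tested.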

Other observations

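Several chaperone genes have processed copies in the genome. The table holds 12 genes named as pseudogenes of 6 members (Dnaja1, Hspa9, Hspd1, Hspe1, Tcp1 and Cct3). Each of the 12 had a baseMean of 0.39% or less of that of its parent gene. The most abundant was Hspd1-ps4, at a baseMean of 8.85 against 2267 for Hspd1. Copies under other names were not counted.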
